A study of Mus musculus with 16 samples.

Results

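Transcripts of the T cell receptor loci were followed in ILC2, the type 2 innate lymphoid cells, of the mouse duodenum. The members were taken by annotation alone: every row of the deposited table whose gene biotype names a T cell receptor segment and is not a pseudogene. This gave 226 of 53465 genes, 144 variable, 4 diversity, 70 joining and 8 constant segments, and left out 44 T cell receptor pseudogenes. By locus, 162 members belonged to alpha, 39 to beta, 15 to gamma and 10 to delta. At least 1 count was recorded for 81 members, and 145 had 0 counts in all 16 libraries.

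T cell receptors are heterodimers of alpha and beta or of gamma and delta chains. Their genes are assembled in the thymus by joining variable and joining segments ahead of a constant segment, with diversity segments between them in beta and delta. Before and beside this recombination, promoters upstream of the unjoined diversity, joining and constant segments give germline (sterile) transcripts, which encode no receptor. ILC2 are lymphocytes that carry no surface T cell receptor; they share a precursor stage and several transcription factors with T cells and act through type 2 cytokines.

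The 16 libraries came from 4 genotypes with 4 libraries each, all on the C57BL/6 strain, aged 6 to 10 weeks, kept specific pathogen free and not treated, and from the first 5 cm of the small intestine. Every mouse carried the Il13 smart13/smart13 reporter. The wild type (WT) and the Alox5 knockout (Alox5 KO, which lacks the 5-lipoxygenase of leukotriene synthesis) carried no Arg1 reporter, whereas the Il25 knockout (Il25 KO) and the St2 knockout (St2 KO, which lacks the IL-33 receptor) also carried Arg1 Yarg/Yarg, so that against WT these 2 knockouts differ in the reporter too. No cell type restricts the knockouts in the labels, the sort gate is not given, and whether each library is its own mouse is not stated. The p-values below therefore measure the spread among libraries, part of which may be technical.

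Library totals ran from 2086864 counts (Alox5 KO 4) to 3216937 (St2 KO 2), with a median of 2625206, and 15490 to 16529 genes had a count. Alox5 was at 96.2 ± 32.8 CPM (counts per 1000000 of the library total; SD, n = 4) in WT and 9.84 ± 3.39 CPM in Alox5 KO, while Il25 had 0 counts in every library and checks no label, and Il1rl1, the gene of ST2, kept 173 ± 37.6 CPM in St2 KO against 216 ± 34.7 CPM in WT. All 18 ILC2 markers of the list had counts, and their summed level was 6817 to 9550 CPM. Genes of other cells were present too, with B and plasma cell markers at 234 to 2357 CPM and myeloid markers at 0.311 to 35.4 CPM in sum. The sample codes form 3 sets, TS (libraries 1 and 2 of each genotype), TT (WT and Alox5 KO 3 and 4) and TY (Il25 KO and St2 KO 3 and 4). The 4 TY libraries had 982 to 1682 Xist counts and at most 2 Ddx3y counts, against at most 7 and at least 709 in the other 12, so for replicates 3 and 4 the set and these sex-linked transcripts move with the genotype.

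Sequences are given in the sense strand on GRCm38. The first 4, beta joining segments, are the best covered of the upstream cluster (Trbj1-1, chr6:41533864-41533911, and Trbj1-2, chr6:41534001-41534048) and of the downstream cluster (Trbj2-1, chr6:41542754-41542803, and Trbj2-7, chr6:41543810-41543856), all on the plus strand. Capitals mark the match to TTNGGNNNNGG, the letters behind the conserved phenylalanine and glycines of joining segments.
Trbj1-1: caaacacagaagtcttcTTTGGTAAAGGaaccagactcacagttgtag
Trbj1-2: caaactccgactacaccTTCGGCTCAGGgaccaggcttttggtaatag
Trbj2-1: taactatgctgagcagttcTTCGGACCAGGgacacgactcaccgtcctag
Trbj2-7: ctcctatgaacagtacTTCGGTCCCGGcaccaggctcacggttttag
Searched on the sense strand only, the motif was present in 57 of the 70 joining members (81.4%) and in 11 of the 13 beta ones. It describes the letters and was not used to choose members.

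The beta constant genes are near copies, which limits how their reads can be told apart. Over the 375 bases of constant exon 1, Trbc1 and Trbc2 differed at 1 base (99.7% identical), shown in capitals within the 60 bases around it (Trbc1, chr6:41538447-41538506; Trbc2, chr6:41546959-41547018; plus strand).
Trbc1: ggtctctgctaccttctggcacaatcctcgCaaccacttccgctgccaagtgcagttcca
Trbc2: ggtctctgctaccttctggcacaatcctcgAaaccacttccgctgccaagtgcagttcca
Of all windows of 36 bases, 43.7% of those of Trbc1 and 47.3% of those of Trbc2 occurred in the other gene, so the split between them is uncertain where reads fell in the shared part. Of the gamma constant genes, Tcrg-C1 shared 46.0% of its windows with Tcrg-C2 or Tcrg-C3, and Tcrg-C4 shared 0%. Tcrg-C1 and Tcrg-C2 were 97.3% identical over the 330 bases of exon 1, and Tcrg-C1 and Tcrg-C4 82.1%. The start of exon 1 shows how Tcrg-C1 (chr13:19214103-19214162) and Tcrg-C4 (chr13:19344558-19344617), both on the plus strand, can be separated, with the differing bases in capitals.
Tcrg-C1: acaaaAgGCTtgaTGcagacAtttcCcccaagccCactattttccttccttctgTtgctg
Tcrg-C4: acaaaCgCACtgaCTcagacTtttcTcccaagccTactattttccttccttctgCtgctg
The delta variable segment Trdv4, on which the comparison of genotypes turns, shared 0% of its windows with another gene. Its last 60 coding bases (chr14:54075456-54075515, plus strand) are given with the codons that end in the conserved cysteine in capitals.
Trdv4: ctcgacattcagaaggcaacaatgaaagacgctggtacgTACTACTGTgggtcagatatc
The sequences are those of the GENCODE M21 transcripts of the mouse genome.

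The T cell receptor members together made up 0.15% to 0.20% of all counts, 70612 counts over the 16 libraries. The gamma locus held 34032 of them, the beta locus 30607, the delta locus 5615 and the alpha locus 358. Gamma transcripts were at 720 to 984 CPM in the libraries (median 800), beta at 675 to 843 CPM (median 711), delta at 69.5 to 166 CPM (median 145) and alpha at 1.44 to 24.1 CPM (median 6.46). The ranges of gamma and beta overlapped, delta lay below both in every library, and alpha below delta in every library. Constant segments held 48206 counts, joining segments 13591, variable segments 8121 and diversity segments 694. In bulk libraries, fewer cells carrying a transcript and less transcript per cell cannot be told apart.

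**Figure D1:**
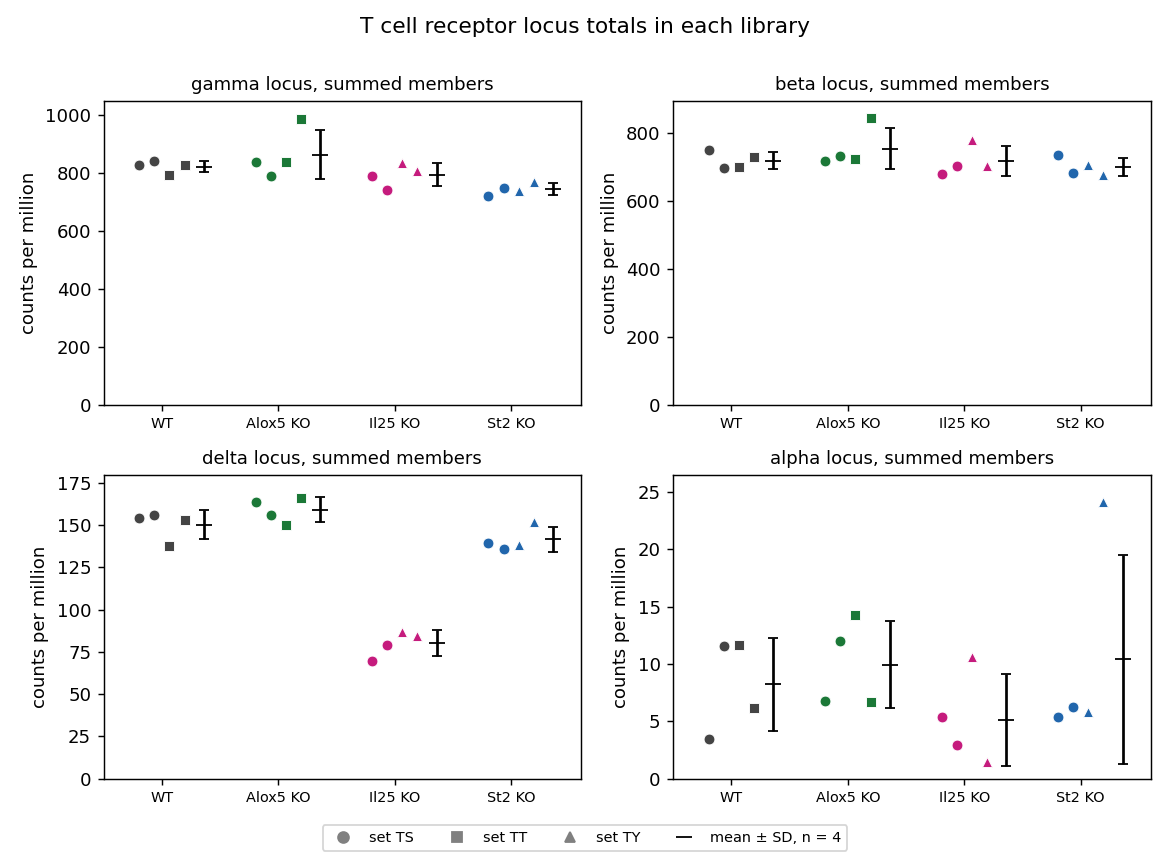
Summed T cell receptor members of each locus in every library (vertical axes, CPM from 0; each panel has its own scale), by genotype; symbols give the sample-code set and bars the mean ± SD over 4 libraries. Gamma and beta sit between 675 and 984 CPM in all genotypes, the delta total is lower in the 4 Il25 KO libraries than in the other 12, and the alpha total stays at or below 24.1 CPM.

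The constant segments, which encode the part of each chain next to the membrane, were led by 4 genes. Tcrg-C4 (chr13:19344558-19352756) had 968, 968, 931 and 868 counts in the WT libraries, 1045, 947, 981 and 902 in Alox5 KO, 1016, 924, 911 and 1034 in Il25 KO, and 1021, 1097, 959 and 993 in St2 KO. Tcrg-C1 (chr13:19214103-19217024) had 813, 826, 806 and 814 counts in WT, 744, 783, 815 and 856 in Alox5 KO, 808, 795, 808 and 831 in Il25 KO, and 824, 848, 709 and 778 in St2 KO. For both gamma constant genes the raw counts of the 4 genotypes overlapped. As CPM, the WT and St2 KO libraries did not overlap, at 303 to 333 against 259 to 278 CPM for Tcrg-C1. For Tcrg-C4 they nearly touched, at 350.4 to 374 against 341 to 350.3 CPM. The mean library total was higher in St2 KO (2956623 counts, against 2571724 in WT), so the same raw count gives a lower CPM there. How many of all genes lack overlap between these genotypes was not counted.

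Trbc1 (chr6:41538218-41539881), the constant gene of the upstream beta cluster, had 709, 648, 648 and 632 counts in WT, 677, 697, 658 and 687 in Alox5 KO, 679, 690, 679 and 669 in Il25 KO, and 726, 685, 653 and 640 in St2 KO. Trbc2 (chr6:41546730-41548352), that of the downstream cluster, had 479, 458, 501 and 454 counts in WT, 462, 467, 458 and 479 in Alox5 KO, 442, 441, 457 and 485 in Il25 KO, and 505, 521, 460 and 488 in St2 KO. The raw counts of the genotypes overlapped here too, and the highest count of Trbc1 was 1.15 times its lowest. As CPM, Trbc1 ran from 213 to 329, and Trbc2 was at 177 to 189 CPM in WT and 162 to 170.3 CPM in St2 KO, without overlap. The higher totals of St2 KO limit this comparison as well, and the share of all genes without overlap was not counted.

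The remaining constant genes were far lower. Per base of annotated exon, the mean count was 0.988 for Tcrg-C4, 0.899 for Trbc1, 0.870 for Tcrg-C1 and 0.683 for Trbc2, against 0.0489 for Tcrg-C2, 0.0175 for Trac, the alpha constant gene, and 0.00744 for Trdc, the delta constant gene. Tcrg-C2 had 20 to 82 counts in a library, Trdc 6 to 85, Trac 2 to 47, and Tcrg-C3 12 counts in all. The exons of Trdc overlap those of Trdv5 and Gm43434, and the library kit marks no strand, so reads of these genes cannot be told apart.

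The counts of 3 of the constant genes hardly followed the depth of the library. Over the 16 libraries, the slope of log2 count on log2 library total was 0.04 ± 0.105 (SE) for Trbc1, -0.04 ± 0.129 for Tcrg-C1, 0.22 ± 0.119 for Trbc2 and 0.44 ± 0.121 for Tcrg-C4, where counts in proportion to depth give 1. The variance of the raw counts divided by their mean was 0.995 for Trbc1 and 1.12 for Trbc2, but around counts in proportion to the library total the chi-square per degree of freedom was 6.89 and 3.64. The short joining and diversity segments were mixed. Of those with more counts per base, Trbd1 had a slope of 1.19, Trbj1-1 of 0.59 and Trbj1-2 of 0.76, but Trgj4 of 0.44 and Trgj1 of 0.15. Trbj2-2 to Trbj2-5, with fewer counts per base than the short segments just named, had slopes of 1.76 to 2.31. The 17 tested members with 0.5 or more counts per base, taken at any mean count, had a median slope of 0.63. This median is not set against those of all genes, which were limited by mean count. Among all genes with a mean count of at least 100, the median slope was 1.28 in 2902 genes with under 0.05 counts per base and 0.27 in 110 genes with 0.5 or more. CPM of Trbc1 was highest in the shallowest library, Alox5 KO 4 (329 CPM), and lowest in the deepest, St2 KO 2 (213 CPM). How duplicate reads were handled is not given in the sources used here, and what this does to differences in these genes was not tested.

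**Figure D2:**
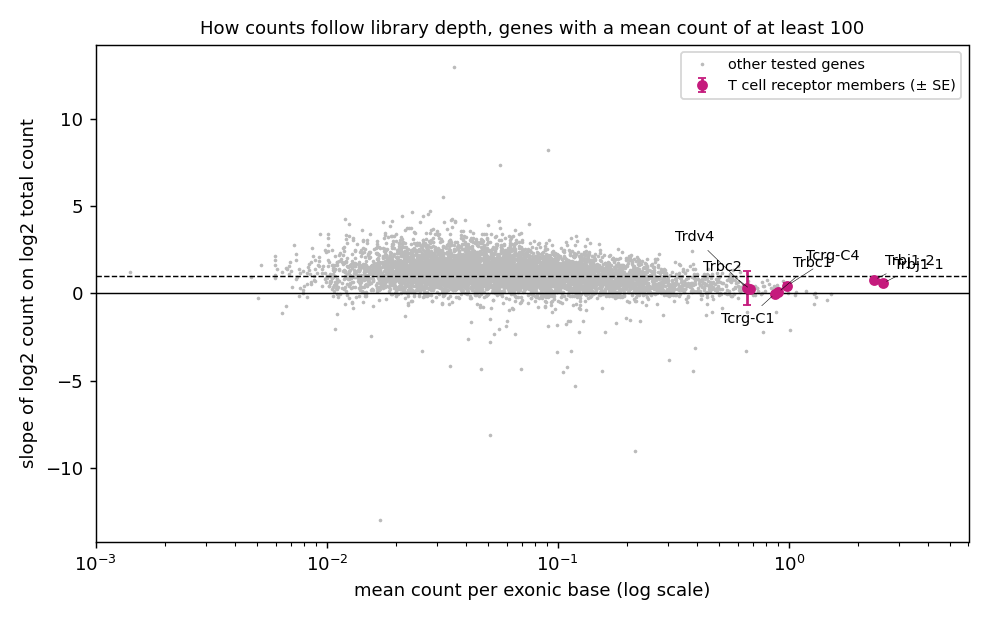
Slope of log2 count on log2 library total over 16 libraries (vertical axis) against mean count per exonic base (horizontal, log scale) for tested genes with a mean count of at least 100; grey points are other genes, coloured points T cell receptor members with their standard errors. The dashed line at 1 is proportion to depth, and Trbc1, Tcrg-C1 and Trbc2 lie at slopes from -0.04 to 0.22.

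In the beta locus, counts were recorded for both diversity segments and all 13 joining segments. The diversity segments are short pieces between variable and joining segments. Trbd1 had 587 counts in all (30 to 52 per library) and Trbd2 100 (2 to 12). Of the upstream joining cluster, Trbj1-1, the segment nearest to Trbd1, had 103 to 144 counts per library and Trbj1-2 had 91 to 130. The other 5 were lower: Trbj1-3 had 1026 counts in all, Trbj1-4 834, Trbj1-5 1067, Trbj1-6 1001 and Trbj1-7 889, against 1973 for Trbj1-1 and 1802 for Trbj1-2.

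The downstream joining cluster was lower as a whole. Trbj2-1, its first segment, had 972 counts (50 to 79 per library) and Trbj2-7, its last, 480 (21 to 51). The segments between them, Trbj2-2 to Trbj2-5, had 296, 310, 249 and 152 counts. In both clusters the segment next to the diversity segment was thus the highest. Summed, the 7 Trbj1 members had 8592 counts and the 6 Trbj2 members 2459, a ratio of 3.49. Since these segments are only 46 to 54 bases long, their counts per base are not set against those of constant genes.

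**Figure D3:**
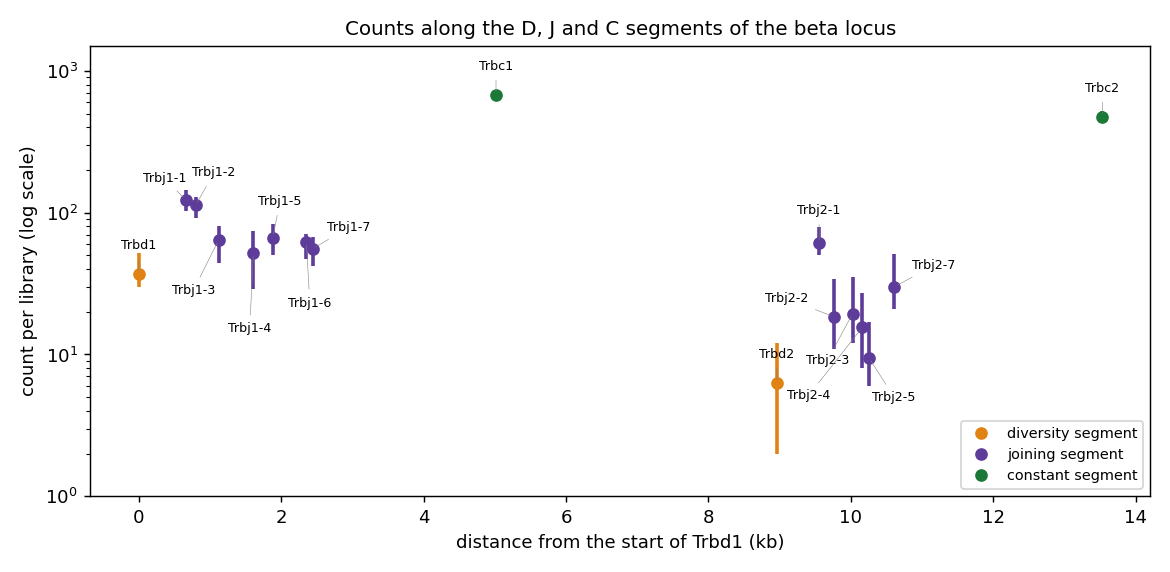
Mean count per library (vertical axis, log scale) of the diversity, joining and constant segments of the beta locus against distance from the start of Trbd1 in kb; bars run from the lowest to the highest of the 16 libraries. Trbj1-1 and Trbj1-2 lie at 103 to 144 and 91 to 130 counts, above the 5 other Trbj1 segments and all Trbj2 segments in total count, and Trbc1 and Trbc2 stand above all of them.

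The ratio of the clusters differed between libraries. It was 3.91, 3.70, 3.70 and 3.91 in WT, 3.11, 3.83, 4.39 and 3.29 in Alox5 KO, 3.87, 4.18, 4.01 and 3.35 in Il25 KO, and 3.39, 2.71, 2.99 and 2.74 in St2 KO. The WT and St2 KO libraries did not overlap, and how often other genes lack overlap was not counted. St2 KO also had the highest mean total (2956623 counts against 2571724 in WT). The slopes on depth ran from 0.59 (Trbj1-1) to 1.77 (Trbj1-4) in the upstream cluster and from 0.71 (Trbj2-1) to 2.31 (Trbj2-4) in the downstream one. Apart from Trbj2-1, the downstream slopes were 1.53 (Trbj2-7) or more. Upstream, only Trbj1-3 (1.48) and Trbj1-4 were above 0.91 (Trbj1-5). These slopes were fitted over all libraries without a genotype term, so depth and a difference of St2 KO cannot be told apart in them. The part of depth in the ratio was not tested, and no joining segment passed the test of St2 KO against WT.

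In the gamma locus, which is made of cassettes of a constant gene with its own joining and variable segments, Trgj1 of the Tcrg-C1 cassette had 1376 counts and Trgj4 of the Tcrg-C4 cassette 1072, while Trgj2 had 28 and Trgj3 8. Trgj1 had 84, 91, 87 and 84 counts in WT, and Trgj4 65, 68, 64 and 60. Joining segments, like the constant genes, were thus high in the cassettes of Tcrg-C1 and Tcrg-C4 and low in those of Tcrg-C2 and Tcrg-C3. Tcrg-C2 and Tcrg-C3 shared 39.7% and 53.2% of their windows with other genes, so their own counts are uncertain. Trgj2 and Trgj3 differ from Trgj1 at 4 and 6 of its 60 bases, and of its windows of 36 bases 36% occurred in Trgj3 and none in Trgj2. All 7 gamma variable segments had a count: Tcrg-V5 759, Tcrg-V1 718, Tcrg-V6 307, Tcrg-V4 259, Trgv2 234, Tcrg-V7 119 and Tcrg-V3 2. Of the 7, all but Tcrg-V3 had counts in every library.

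Beta variable segments, in contrast, were sparse. Of 22, 17 had a count, 535 counts in all, and 2 were found in every library, Trbv13-2 (183 counts) and Trbv12-2 (182). Several of the others had most, but not all, of their counts in 1 library. Trbv12-1 had 26 of its 28 counts in St2 KO 1, and Trbv16 had 16 of 27 and Trbv1 14 of 23 in St2 KO 4. Trbv13-1 had 16 of 23 in St2 KO 2, and Trbv2 had 7 of 9 in WT 4. These 5 were picked after their values were seen, as members with at least 9 counts of which 50% or more lay in 1 library. Summed beta variable counts were 15, 15, 28 and 37 in WT, 17, 21, 13 and 18 in Alox5 KO, 22, 29, 38 and 27 in Il25 KO, and 70, 82, 38 and 65 in St2 KO. As CPM these were 9.31 ± 4.47 in WT, 7.17 ± 1.55 in Alox5 KO, 10.9 ± 3.23 in Il25 KO and 21.3 ± 5.13 in St2 KO (SD, n = 4). One of the St2 KO libraries, St2 KO 3 at 13.9 CPM, lay within the WT range, which reached 15.1 CPM.

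The delta locus lies inside the alpha locus on chromosome 14, and most of its counts were from 1 variable segment. Trdv4 held 4675 of the 5615 delta counts, Trdc 460 and Trdv2-2 412. Both delta joining segments had counts, 40 in all, and the 2 diversity segments 7. Trdv4 had a count of 111 or more in every library. Trdv2-2 shared 58.3% of its windows with Trdv2-1 or Gm43647 and its exons overlap Gm43647, so its counts are uncertain.

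The alpha locus had few counts in the segments that recombine. Of 110 variable members 11 had a count (80 counts in all), and of 51 joining members 11 had a count (16 counts), and Trac had 262. A count of 0 allows up to 3 counts, which is 0.933 to 1.44 CPM in these libraries and covers counting error only. Alpha variable segments also share sequence, with a median of 75.6% of windows found in another gene and 39 of 110 with none of their own, so reads of these could be lost or moved between copies. Variable and joining counts of the alpha locus were 0, 0, 0 and 2 in WT, 6, 2, 15 and 2 in Alox5 KO, 9, 4, 18 and 2 in Il25 KO, and 5, 2, 6 and 23 in St2 KO. The highest were St2 KO 4, Il25 KO 3 and Alox5 KO 3, and WT the lowest. Trav15-1-dv6-1, a segment that both alpha and delta chains can use, gave 15 counts in Il25 KO 3 and 15 in St2 KO 4, of 41 in all.

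Genotypes were compared in 33 of the 226 members, those that passed the filter on low counts: 15 joining, 10 variable, 7 constant and 1 diversity segment. The 48 other members with a count had at most 100 counts over the 16 libraries. The test was edgeR's quasi-likelihood test over all 11742 genes that passed, with genotype and sample-code set as terms and a Benjamini-Hochberg adjusted p under 0.05 as the threshold. The comparisons with WT share the WT libraries, and those with Il25 KO share its libraries.

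In Alox5 KO against WT, none of the 33 T cell receptor members passed the test, where 12 of all genes did (0.102%). The member nearest to it was Tcrg-C4, at 363 ± 12.3 CPM in WT and 401 ± 29.3 CPM in Alox5 KO (SD, n = 4), a log2 fold change of 0.15 ± 0.073 (SE, adjusted p = 0.691), and it was the only member with an unadjusted p under 0.05 (3.03% of members, beside 7.17% of all genes). DESeq2 also called 0 members. The log2 fold changes of Trbc1 and Tcrg-C1 were 0.15 (95% interval -0.06 to 0.35) and 0.08 (-0.12 to 0.27). All 15 joining segments lay between -0.32 and 0.18. The median over the members was 0.03, beside 0.01 over all genes.

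In Il25 KO against WT, 1 of the 33 members passed the test, the delta variable segment Trdv4, which fell, where 49 of all genes passed (0.417%). Trdv4 had 352, 343, 326 and 321 counts in WT, 364, 372, 319 and 291 in Alox5 KO, 160, 186, 111 and 183 in Il25 KO, and 334, 344, 311 and 358 in St2 KO. The 4 Il25 KO libraries were below each of the other 12, with the highest of them at 186 counts against 291 for the lowest of the rest. The level was 130.5 ± 5.61 CPM in WT and 59.2 ± 10.4 CPM in Il25 KO (SD, n = 4). The fit with the set term gave a log2 fold change of -1.15 ± 0.149 (SE, adjusted p = 0.000439 by edgeR).

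Trdv4 lies at chr14:54074905-54075515 on the plus strand, and Il25 at chr14:54932695-54935837, 0.858 Mb away. The knockout and whatever else differs between the chromosomes around the targeted gene cannot be told apart in this design. Of the 63 tested genes within 2 Mb of Il25, a window set after the values were seen, 3 passed the test in Il25 KO against WT (4.76%), Gm43305, Trdv4 and Psmb5, and 0 in Alox5 KO or St2 KO against WT. Gm43305 fell by 6.36 ± 0.810 and Psmb5, a proteasome subunit, by 0.90 ± 0.191 on the log2 scale (adjusted p = 0.000394 and 0.0454). The call for Trdv4 held without Il25 KO 3, its lowest library (-1.08, adjusted p = 0.000561). With the TS libraries alone, 2 per genotype, the log2 fold change was -1.06 and the adjusted p 0.0736.

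The other tested members on chromosome 14 did not pass. Trdv2-2, another delta variable segment, had 36, 38, 19 and 33 counts in WT and 19, 13, 10 and 12 in Il25 KO, which meet at 19 (log2 fold change -1.29 ± 0.436, adjusted p = 0.308). Trac had 9, 30, 31 and 13 counts in WT and 6, 4, 8 and 2 in Il25 KO, without overlap (-2.54 ± 0.798, adjusted p = 0.252). How many of all genes lack overlap in this comparison was not counted. Trdc, which lies between Trdv4 and Trac, had 6, 23, 20 and 18 counts in WT and 13, 14, 85 and 35 in Il25 KO, the other way (1.02 ± 0.722, adjusted p = 0.733).

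**Figure D4:**
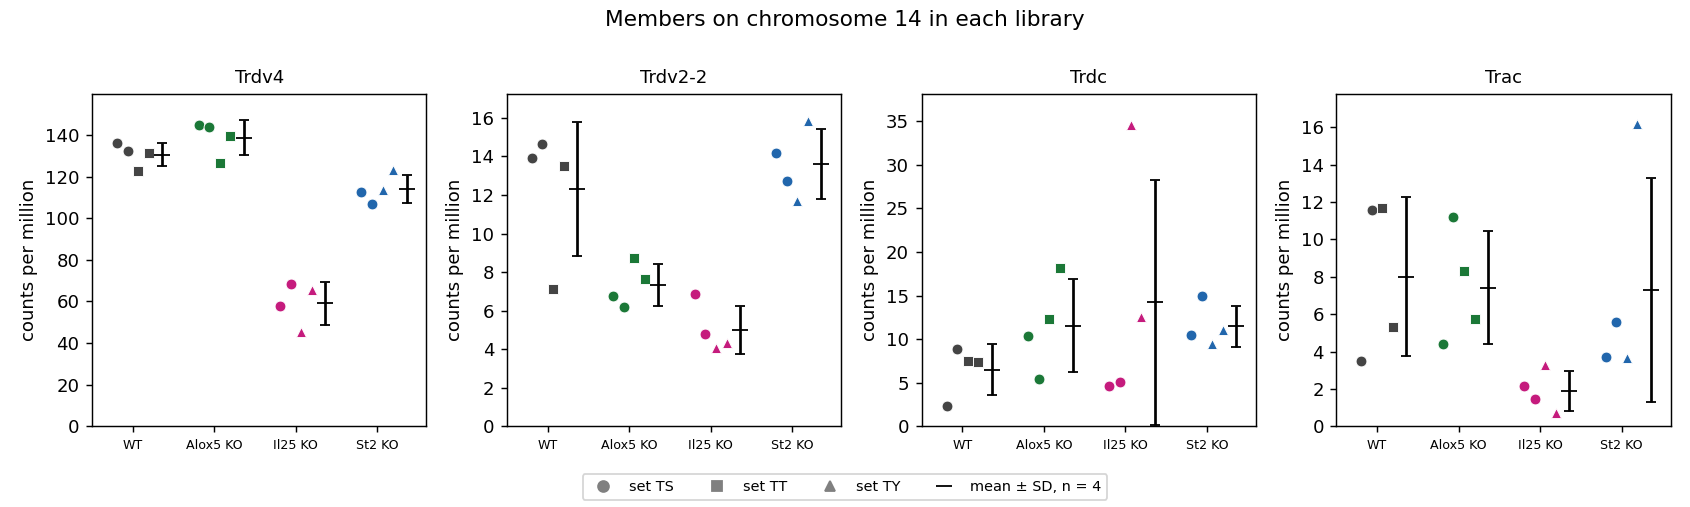
Level of the 4 tested chromosome 14 members in each library (vertical axes, CPM from 0, own scale in each panel), by genotype; symbols give the sample-code set and bars the mean ± SD over 4 libraries. The Il25 KO libraries of Trdv4 lie at 45.2 to 68.2 CPM, apart from the others at 107 to 145 CPM, while Trdc is highest in Il25 KO 3 at 34.6 CPM.

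Some transcripts of other cells moved with Trdc in Il25 KO 3. That library had 85 Trdc counts, the highest of all libraries, 16 of the 17 Cd8a counts of the study and 15 counts of Trav15-1-dv6-1. Its 8 Trac and 53 Cd3e counts lay within the range of the other libraries. Its summed myeloid markers, at 35.4 CPM, were the highest of the study, where the other Il25 KO libraries had 1.08 to 4.04 CPM. Its B and plasma cell markers, at 2357 CPM, were also the highest but close to WT 2 (2298 CPM) and Alox5 KO 4 (2275 CPM). The 15 markers of intraepithelial and gamma-delta T cells, which all had counts, summed to 1560 CPM in this library, to 1278 to 1578 CPM over the 4 Il25 KO libraries and to 1328 to 1555 CPM in WT. The part of such cells in the Trdc counts was not tested.

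Outside chromosome 14, Tcrg-V5, a gamma variable segment, had 58, 64, 52 and 52 counts in WT and 34, 18, 28 and 50 in Il25 KO, without overlap. The fit with the set term put Tcrg-V5 at -1.33 ± 0.358 (adjusted p = 0.176 by edgeR). Over the alternatives to this fit its log2 fold change ran from -1.39 to -0.82. Trbv13-2 had 1, 7, 11 and 6 counts in WT and 14, 7, 18 and 11 in Il25 KO (1.57 ± 0.704, adjusted p = 0.492). These 2 and Trdv4, Trac and Trdv2-2 were the 5 members with an unadjusted p under 0.05 (15.2%, beside 9.3% of all genes). The dense constant genes stayed close to WT, with 95% intervals of -0.19 to 0.19 for Tcrg-C4, -0.24 to 0.27 for Trbc1 and -0.22 to 0.26 for Tcrg-C1. The member median was 0.04, beside 0.00 over all genes.

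In St2 KO against WT, none of the 33 members passed, where 35 of all genes did (0.298%). Trbv13-2, with 17, 32, 14 and 16 counts in St2 KO against 1, 7, 11 and 6 in WT, did not overlap and had the only unadjusted p under 0.05 among members (2.04 ± 0.654, adjusted p = 0.372), where 7.49% of all genes had one. The share of all genes that lack overlap here was not counted. Across all libraries, counts of Trbv13-2 rose steeply with depth (slope 3.20 ± 1.55). That slope has no genotype term and St2 KO had the highest mean total, so depth and genotype cannot be told apart in it. DESeq2 called 0 members here too. Trdv4 was at 114.1 ± 6.73 CPM in St2 KO (SD, n = 4), with a log2 fold change of -0.26 ± 0.139 (adjusted p = 0.715). The 4 dense constant genes lay slightly below WT, at -0.11 ± 0.089 for Tcrg-C4, -0.20 ± 0.115 for Tcrg-C1, -0.17 ± 0.120 for Trbc1 and -0.14 ± 0.115 for Trbc2, each with an interval that includes 0, and the 3 sparse ones were at -0.63 (Trac), 0.24 (Tcrg-C2) and 0.77 (Trdc). Of the 15 joining segments, 9 lay above 0, up to 0.64, with adjusted p of 0.777 or more.

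The Yarg allele is shared by Il25 KO and St2 KO, so their comparison leaves it out. Again 1 of the 33 members passed, Trdv4, lower in Il25 KO, with a log2 fold change of -0.89 ± 0.125 (adjusted p = 0.000436), where 146 of all genes passed (1.24%). Gm43305 and Psmb5 passed here as well. Trdv2-2 had 19, 13, 10 and 12 counts in Il25 KO and 42, 41, 32 and 46 in St2 KO, without overlap. It was at -1.38 ± 0.353 (adjusted p = 0.0643), and DESeq2 called it (adjusted p = 0.0253). The share of all genes without overlap was again not counted. Trac was at -1.90 ± 0.663 (adjusted p = 0.225), Tcrg-V5 at -0.70 ± 0.292 (0.359) and Tcrg-C1 at 0.22 ± 0.095 (0.365). These 3 and Trdv2-2 and Trdv4 were the members with an unadjusted p under 0.05 (15.2%, beside 11.3% of all genes).

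**Figure D5:**
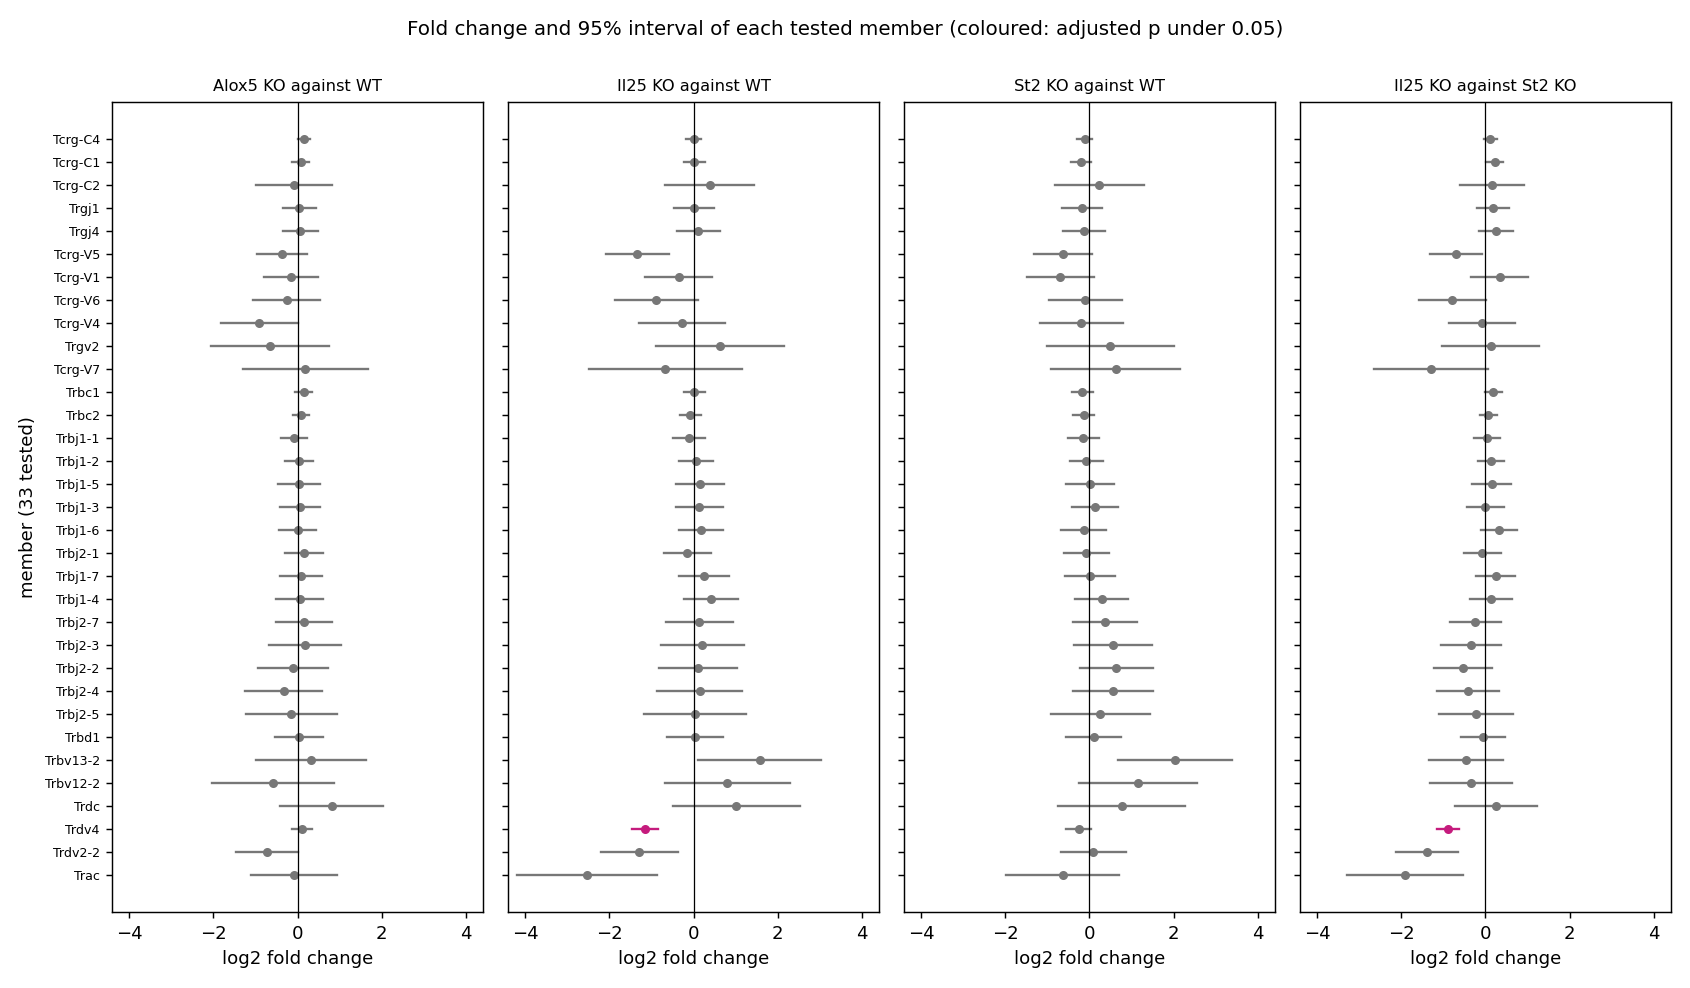
Log2 fold change (horizontal axis) with its 95% interval for the 33 tested T cell receptor members (vertical axis, by locus), 1 panel per comparison; colour marks an adjusted p under 0.05. Trdv4 is coloured in Il25 KO against WT (-1.15) and against St2 KO (-0.89), and the other intervals are widest for variable segments of low count.

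The rest of the T cell receptor pathway was read from lists of genes. The CD3 chains, which carry the receptor to the surface and signal for it, were uneven: Cd3g had 138 to 336 counts in a library, Cd3e 3 to 94, Cd247 5 to 58 and Cd3d 2 to 32. None of the 4 passed edgeR's or DESeq2's test in any comparison. At an unadjusted p under 0.05 by edgeR there were 2 of the 4 in St2 KO against WT, Cd247 and Cd3e (beside 7.49% of all genes). There was 1 in Il25 KO against WT, Cd247 (beside 9.3% of all genes), and 0 in the others. The list median on the log2 scale was -0.21 in Alox5 KO, 0.61 in Il25 KO and 0.94 in St2 KO, each against WT, while between the Il25 KO and St2 KO libraries it was -0.25, beside -0.01 to 0.01 over all genes. The summed level of the 4 chains overlapped, at 107 to 168 CPM in St2 KO and 121 to 163 CPM in WT. Of the coreceptors that define T cell subsets, Cd4 had at most 3 counts in a library, Cd8b1 0 in all, and Cd8a 0 in 14 libraries.

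Genes that act below the receptor were well covered. Of 32 proximal signalling genes 30 were tested and 0 passed edgeR's test in the 4 comparisons. At an unadjusted p under 0.05 there were 6 of the 30 in Alox5 KO, 7 in Il25 KO and 3 in St2 KO, each against WT. In Il25 KO against St2 KO there were 7. The shares over all genes were 7.17%, 9.3%, 7.49% and 11.3%, in the same order. DESeq2 called 1 gene of the list, Txk, a Tec kinase, in Il25 KO against St2 KO. Skap1, an adaptor, was at a mean of 568 CPM over the 16 libraries, Lcp2, the adaptor SLP-76, at 560, and Ptpn22, a phosphatase that limits the signal, at 472 CPM. Lat, the membrane adaptor, had 520 to 760 counts. The list medians lay between 0.03 and 0.13 on the log2 scale, beside -0.01 to 0.01 over all genes.

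Of the coreceptor and costimulation list 6 of 10 genes were tested. Cd28, the costimulatory receptor, rose in St2 KO against WT (from 15.95 ± 5.38 to 271 ± 40.0 CPM, SD, n = 4, with 4.26 ± 0.374 on the log2 scale and an adjusted p of 1.28e-06 by edgeR) and was lower in Il25 KO than in St2 KO (-4.80 ± 0.287, adjusted p = 2.39e-09). DESeq2 also called Cd28 in Alox5 KO against WT, where edgeR's adjusted p was 0.184. The other 5 tested, among them Icos (737 CPM on average) and Cd27 (285 CPM), were not called by either tool.

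The machinery that recombines the loci was mostly off in its lymphoid part. Rag1, the catalytic subunit of the recombinase, had 1 count in each of 2 libraries, Dntt, the enzyme that adds bases at the joints, and Ptcra, the surrogate alpha chain of early thymocytes, had 0 counts in all, and Rag2 had 0 to 39 counts. The repair genes used by every cell were present, with Prkdc at 124 CPM, Xrcc6 at 119 and Xrcc5 at 100.3 CPM. Of the 14 genes of this list 11 were tested, and in each comparison 0 passed edgeR's or DESeq2's test and 0 had an unadjusted p under 0.05. Of a list of 28 genes known to act on T cell receptor loci, transcription and chromatin factors and the cytokine receptor chain Il7r, 25 were tested, and 1 passed, Ets2, higher in Il25 KO than in St2 KO (0.64 ± 0.126, adjusted p = 0.0111). Il7r was the highest of this list at 1203 CPM, followed by Gata3 at 600.0, Id2 at 560 and Ets1 at 548 CPM. Of these only Id2, an inhibitor of E proteins, was called by DESeq2, in St2 KO against WT (437 ± 56.7 against 616 ± 24.9 CPM, SD, n = 4) and in Il25 KO against St2 KO, and not by edgeR.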

How the data were processed

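RNA from 16 libraries of duodenal ILC2 was measured by RNA-seq made with a kit that marks no strand, per the labels' protocols. The authors deposited 1 table of raw counts per gene, whole numbers with no normalization. The submitters' processing notes name the build GRCm38 and, in no stated order, FastQC 0.11.3, HTSeq 0.4.1, Picard 1.134 and STAR 2.4.2a; their roles and settings, the read length, the annotation release and the handling of duplicate and multiply mapped reads are not given in the sources used here. Of 53471 rows, 6 with a repeated identifier were dropped. Rows without a symbol held 0.184% of counts.

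Members were taken by biotype, placed in a locus by symbol or, for 2 members (B230359F08Rik and C920008G01Rik), by position, and expressed as CPM of the column total. Totals over members were described without a test. Genotypes were compared with edgeR 4.0.16 in R 4.3.3 (filter by expression over the genotypes, TMM scaling, robust quasi-likelihood fit over all 16 libraries with genotype and sample-code set, Benjamini-Hochberg adjustment at 0.05 over 11742 genes). The script was tested on simulated data. Slopes on depth used log2 of the count plus 1 and no genotype term. Sequences and shared windows of 36 bases were read from GENCODE M21 transcripts with Python 3.11.15 and pandas 2.3.3.

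The members and lists were chosen with earlier results of these data known. Members named are the constant genes, the 12 others with the most counts and those called. Of each list, called genes and up to 4 of the highest level are named; 1 list gene is not reported here. The remaining members of the beta joining cluster and of the gamma locus, Trdv2-2, Trbv13-2, Trbv12-2 and the members with counts mostly in 1 library were named after their values were seen. Alternatives were DESeq2 1.42.0, its size factors, no filter, no set term, a replicate block, the TS libraries alone and each library left out; the legacy mode of edgeR's fit was added after seeing the data.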

Additional observations from a re-analysis of the deposited data

Results flagged for a closer look

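In 96 sets of 4 libraries, one per genotype and value, the highest and the lowest library were compared with the other 3, and 10 stood apart by a gap beyond Dixon's 95% critical value. Chance alone flags about 1 in 20 such sets, and the 2 sets of Tcrg-C3 pass with any count, since their other libraries were at 0. No explanation of these values was tested.

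Alox5 KO 4, the shallowest library, was high in 3 of them. Its beta total was 843.4 CPM, where the next highest library of that genotype had 733.1, Trbc1 was at 329.2 CPM against 269.5, and Trbc2 at 229.5 CPM against 183.9. Its raw counts of Trbc1 and Trbc2, 687 and 479, lay within the range of the other libraries.

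St2 KO 4 was high in 3. Its alpha total was 24.08 CPM, where the next highest of that genotype had 6.217, Trac was at 16.17 CPM against 5.595, and Tcrg-C3 at 1.032 CPM (3 counts) against 0.

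WT 3 was low for the delta total (137.7 CPM against 153.2 for the next) and for Trbj1-4 (13.17 CPM against 18.54). Tcrg-C3 in WT 4 was at 0.4086 CPM, 1 count, against 0. Tcrg-C4 in Il25 KO 2 was low, at 339 CPM against 366.1 for the next.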

How the results depend on the processing

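The call of Trdv4 in Il25 KO held against WT and against St2 KO under every alternative except the TS libraries alone, where 0 members were called in each (log2 fold changes -1.06 and -0.75, adjusted p = 0.0736 and 0.173); over the libraries left out in turn the adjusted p was 0.0005 to 0.00514 and 0.000493 to 0.00328. DESeq2 called 2 members in Il25 KO against St2 KO, adding Trdv2-2. In Alox5 KO and in St2 KO against WT, 0 members were called under all alternatives. Locus totals per genotype moved by less than 1 SD with TMM-scaled totals and with pseudogenes added. The alpha mean rested on single libraries: it was 10.4 CPM in St2 KO and 5.82 without St2 KO 4, and 5.09 CPM in Il25 KO and 3.26 without Il25 KO 3.

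The count of all genes called, which sets the background, moved more. In Alox5 KO against WT it was 12, and 53 with DESeq2, 21 with the replicate block, 5 in the legacy mode and 3 in the TS libraries alone. In Il25 KO against WT it was 49, and 82 with DESeq2, 95 without the set term and 9 in TS alone. In St2 KO against WT it was 35, and 67 with DESeq2 and 58 without the set term. In Il25 KO against St2 KO it was 146, and 246 with DESeq2 and 33 in TS alone. Leaving out 1 library gave 6 to 20, 31 to 53, 19 to 45 and 80 to 168. Changes of over 1.5 times came without Alox5 KO 2, 3 or 4 (6, 7 and 7) or Il25 KO 1 (20) in the first, WT 2 (31) in the second, WT 1 or 2 (19 and 23) in the third, and Il25 KO 2 or 3 (85 and 81) or St2 KO 2 or 4 (80 and 84) in the last. The cause was not tested. With the replicate block the other 3 counts were 41, 35 and 139, and the member calls were the same in number. Same-numbered libraries did not deviate together after genotype and set were fitted (correlations -0.287 to 0.077). Because that fit constrains the deviations, this does not settle whether the numbers pair the libraries.

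Depth limits the low members: 145 had 0 counts, and 48 with a count were too low to test. A count of 0 allows up to 3 counts, 0.933 to 1.44 CPM by library.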

Other observations

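Further patterns of T cell genes crossed the genotypes and were noticed after the values were seen. Ctla4, an inhibitory receptor, had 445 counts in WT 3 and 512 in St2 KO 4, against 9 to 120 in the other 14 libraries. Trbv16 had counts in the same libraries, 7 in WT 3 and 16 in St2 KO 4, with 4 in all the rest, and Tox, a factor of T cell and innate lymphoid development, was highest in them, at 243 and 450 counts against 134 to 229. Foxp3, which marks regulatory T cells, was at 2 counts in both and at up to 64 in other libraries. The part of other cells was not tested.

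Itgae, the integrin chain of intraepithelial lymphocytes, was higher in Il25 KO than in St2 KO (log2 fold change 1.94 ± 0.458, adjusted p = 0.0402 by edgeR, also called by DESeq2), with 37, 22, 103 and 66 counts against 6, 6, 3 and 52. St2 KO 4 overlapped the Il25 KO libraries.

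Of the 44 T cell receptor pseudogenes, 7 had a count, 326 in all, and Trbj2-6 of the downstream beta cluster held 287 of them. That was more than the 249 counts of Trbj2-4 or the 152 of Trbj2-5, the segments just upstream of it.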
